A study of Mus musculus with 10 samples.

Results

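Gene expression in mouse dendritic cells was compared between 60 h and 48 h of stimulation with LPS alone, the bacterial lipopolysaccharide that activates Toll-like receptor 4. The comparison used 4 of the series' 10 Affymetrix arrays, chosen by their labels as those given LPS without thapsigargin. These were 1 array each of CD14-deficient cells at 60 h, CD14-deficient cells at 48 h, wild-type cells at 60 h and wild-type cells at 48 h, so the shift with time was read within each genotype and the genotypes served as the only repeats. The cells came from the bone marrow of Cd14-/- C57BL/6 mice or of C57BL/6 mice, aged 6 to 8 weeks in both genotypes. Marrow was cultured for 7 to 10 days with supernatant of B16 tumour cells that secrete GM-CSF, and cultures were used when over 90% of cells bore CD11c, so each array is a bulk sample of a mixed culture. All 4 cultures were plated alike and received smooth LPS at 1 µg/ml. The other 6 arrays were an unstimulated culture of each genotype and LPS with 50 nM thapsigargin, which raises cytosolic calcium, for 60 and 48 h in each genotype. Whether cultures shared mice is not stated in the labels, and no condition was repeated. The series was set up to find apoptosis genes governed by NFAT, the transcription factor that calcium activates.

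CD14 is a co-receptor that hands LPS to Toll-like receptor 4 and, in mouse dendritic cells, also starts a calcium signal. After LPS, dendritic cells switch from uptake to presentation: they lose lectin and scavenger receptors, gain costimulatory ligands and the lymph node homing receptor CCR7, and secrete cytokines and type I interferon. Marrow cultures grown with GM-CSF hold macrophage-like cells beside dendritic cells, and these keep more phagocytic and lysosomal genes.

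Values are the authors' MAS5 signals, a linear intensity per probe set, scaled here to a common trimmed mean and raised to a floor of 13.4 before log2 was taken. A shift is the log2 signal at 60 h minus that at 48 h. Of 12393 genes, 6821 were tested, those whose mean log2 signal over the 4 arrays reached the pooled median. The Cd14 signal, on the scaled linear scale, was 3.86 at 60 h and 7.35 at 48 h in CD14-deficient cells, under the floor, and 16193 at 60 h and 15604 at 48 h in wild-type cells. Dendritic cell markers were present on all 4 arrays: the class II genes H2-Aa, H2-Ab1, H2-Eb1 and Cd74 and the actin bundler Fscn1 were among the bright ones, while Cd209a was dim. Of the 16 macrophage markers on the array, Cd163 was at the floor on all 4 arrays and Lyz2, Cd68 and Csf1r were bright. Of 9 T and NK cell markers, 0 were tested, and Cd3e, Cd3g, Cd4, Ncr1 and Nkg7 lay at the floor throughout.

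Several control measurements differed between the times in opposite directions in the genotypes. The RNA integrity number was 8.6 at 60 h and 10 at 48 h in CD14-deficient cells, and 8.6 at 60 h and 9.4 at 48 h in wild-type cells, so it was lower at 60 h in both. From 0.3 µg of RNA, labelling gave 44.6 µg of cRNA at 60 h and 15 µg at 48 h in CD14-deficient cells, and 19 µg at 60 h and 31.2 µg at 48 h in wild-type cells. The mean of the 3 control probe sets for 18S ribosomal RNA was 8571 at 60 h and 256 at 48 h in CD14-deficient cells, and 433 at 60 h and 4518 at 48 h in wild-type cells. On the other 6 arrays it lay between 2119 and 11492, so 1 array of each genotype, of opposite times, stood below all others in 18S signal and in yield. The 12 poly-A spike probe sets were all lower at 60 h in CD14-deficient cells, with a geometric mean ratio of 0.549, and all higher at 60 h in wild-type cells, with a ratio of 1.44. The hybridisation spikes moved less, with ratios of 0.942 and 1.14. The ratio of 3′ to 5′ signal for Actb, a measure of RNA degradation, was 1.07 at 60 h and 1.11 at 48 h in CD14-deficient cells, and 1.62 at 60 h and 1.12 at 48 h in wild-type cells. By Actb the wild-type array at 60 h was the most 3′-weighted. For Gapdh the ratio was 0.730 at 60 h and 0.980 at 48 h in CD14-deficient cells, and 0.848 at 60 h and 0.746 at 48 h in wild-type cells. By Gapdh the CD14-deficient array at 48 h was the most 3′-weighted. Wherever genes are given below as moving oppositely in the genotypes, 18S signal, poly-A spikes and yield did so too, and their part in the gene shifts was not tested.

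**Figure D1:**
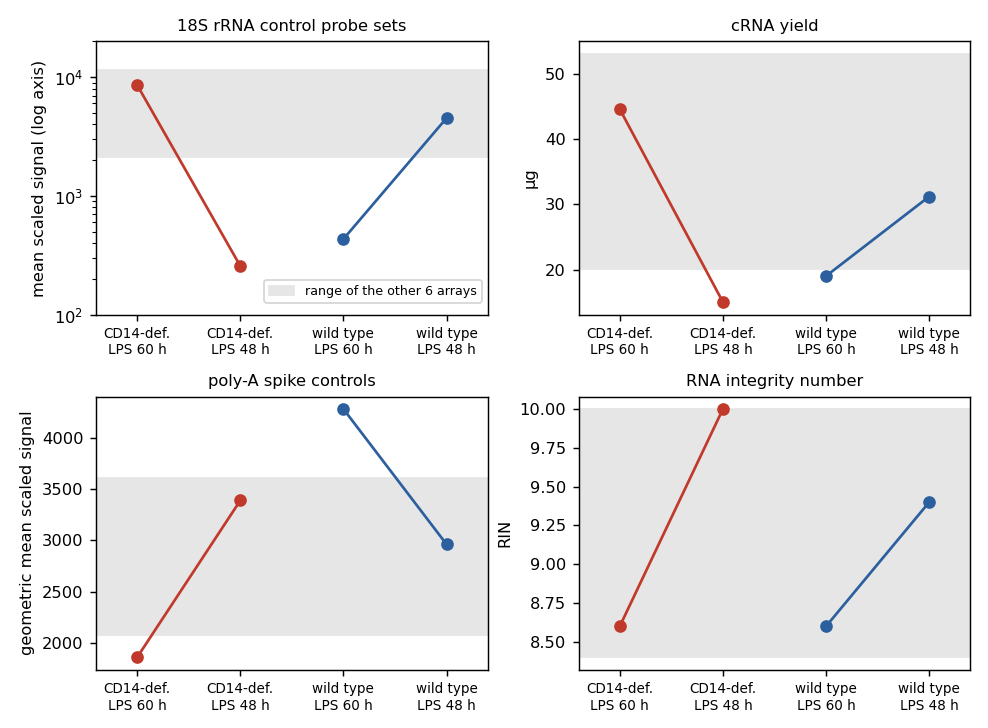
Control measurements of the 4 LPS arrays: mean scaled signal of the 18S rRNA control probe sets (log axis), cRNA yield in µg, geometric mean scaled signal of the poly-A spikes, and RNA integrity number, with 60 h left of 48 h and lines joining arrays of 1 genotype (red CD14-deficient, blue wild type). The grey band is the range of the other 6 arrays; 18S signal fell outside it at 256 (CD14-deficient, 48 h) and 433 (wild type, 60 h).

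No gene passed the test of a shift common to both genotypes. With genotype as a block, limma called 0 of 6821 genes at an adjusted p under 0.05 (0%), where the smallest adjusted p was 1.00. An unadjusted p under 0.05 was reached by 94 genes (1.38%). A model over all 10 arrays, with a separate time term for the thapsigargin arrays, also called 0, with a smallest adjusted p of 0.878 and 352 genes (5.16%) under an unadjusted 0.05. Dropping the block gave 0 calls and 47 genes (0.689%) under an unadjusted 0.05. The 4-array test has 1 residual degree of freedom, and that residual is how far the genotypes part from a common shift.

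They parted widely. In CD14-deficient cells 1075 genes (15.8%) were at least 2-fold apart between the times, 605 higher (8.87%) and 470 lower (6.89%) at 60 h. In wild-type cells 366 genes (5.37%) were, 274 higher (4.02%) and 92 lower (1.35%). Of the 124 genes that were 2-fold apart in both genotypes, 25 moved in the same direction and 99 in opposite directions (1.45% of all genes tested). Genes 2-fold higher in both numbered 22 (0.323%), which is 3.64% of those higher in CD14-deficient cells and 8.03% of those higher in wild-type cells. These shares are close to those of all genes, of which 8.87% were 2-fold higher in CD14-deficient cells and 4.02% in wild-type cells, so the overlap is no larger than the sizes of the lists give. Genes 2-fold lower in both numbered 3 (0.044%), 0.638% of the CD14-deficient list and 3.26% of the wild-type list. Over genes of any size of shift, 2557 (37.5%) had the same sign in both genotypes. Across the 6821 genes, which are not independent replicates, the shifts of the 2 genotypes had a Pearson correlation of -0.31 and a Spearman correlation of -0.33. The thapsigargin arrays, which share no array with these, gave 0.61 and 0.60 between the genotypes, with 122 genes (1.79%) 2-fold apart in CD14-deficient cells and 64 genes (0.938%) in wild-type cells. Of these, 0 (0%) were 2-fold apart in opposite directions.

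**Figure D2:**
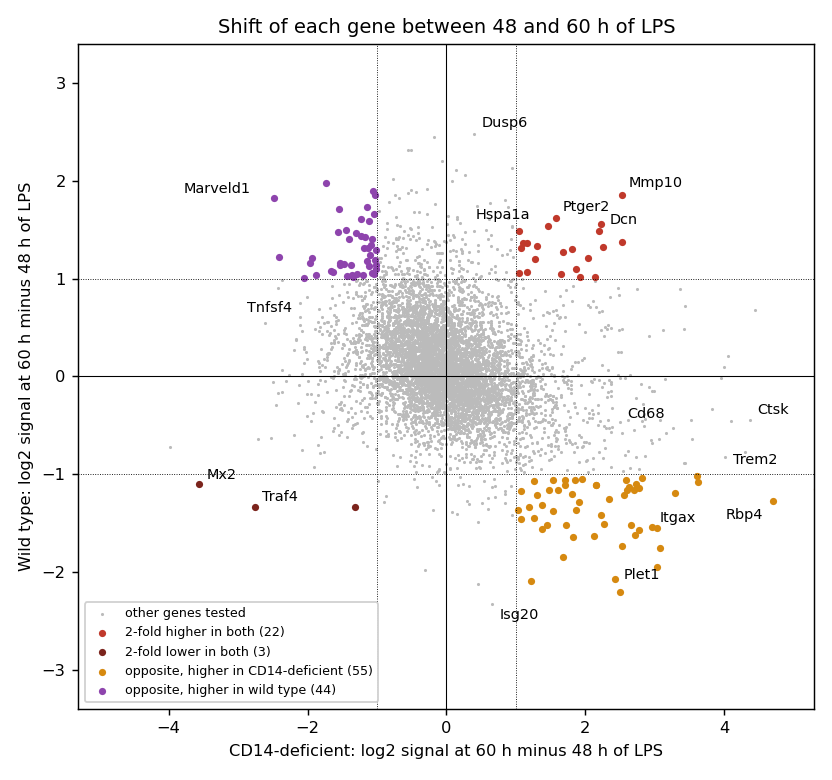
Log2 signal at 60 h minus 48 h of LPS in CD14-deficient cells (horizontal) and wild-type cells (vertical) for each of the 6821 genes tested, with dotted lines at 2-fold. Coloured points are the 22 genes 2-fold higher in both genotypes, the 3 lower in both, the 55 higher in CD14-deficient and lower in wild-type cells, and the 44 of the reverse; the cloud slopes downward.

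The difference between the shifts was tested directly, as the wild-type shift minus the CD14-deficient shift. Limma called 3352 of 6821 genes (49.1%) at an adjusted p under 0.05, 1975 (29%) with the more positive shift in wild-type cells and 1377 (20.2%) with the more positive shift in CD14-deficient cells. The spread behind this test comes from the thapsigargin arrays alone, with 1 residual degree of freedom, because the 4 LPS arrays leave none. The LPS arrays may vary more than those, and neither culture nor mouse variation enters these p-values. With no filter on dim genes the same test called 694 of 12393 genes, and with the floor at the pooled median 2095 of 6821.

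The 22 genes higher at 60 h in both genotypes are described by what they encode, with no test of any theme among them. Mmp10, which encodes the matrix protease stromelysin-2, was the gene with the largest smaller-of-the-two shift. Its scaled signal was 77.0 at 60 h and 4.32 at 48 h in CD14-deficient cells, and 925 at 60 h and 255 at 48 h in wild-type cells. Since the 48 h signal in CD14-deficient cells lay under the floor, it was at least 5.75-fold higher at 60 h there, and 3.63-fold higher in wild-type cells. With a common shift of 2.19 ± 0.47 (log2, SE) it also had the smallest unadjusted p of the common test, 0.00283, which did not survive adjustment (limma adjusted p = 1.00). With thapsigargin its signal was 286 at 60 h and 79.1 at 48 h in CD14-deficient cells, and 472 at 60 h and 172 at 48 h in wild-type cells, again higher at 60 h in both. On the unstimulated arrays it was under the floor, at 6.39 for CD14-deficient and 3.04 for wild-type cells.

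The promoter of Mmp10 is shown because the gene leads the list and its window holds the letters of an AP-1 element, TGANTCA, the site bound by Fos and Jun dimers. The RefSeq window (GRCm38.p6, plus strand, chr9:7502092-7502391) runs from 250 bases before to 50 bases after the gene's start, and the match, in capitals, begins 63 bases before the start.
Mmp10: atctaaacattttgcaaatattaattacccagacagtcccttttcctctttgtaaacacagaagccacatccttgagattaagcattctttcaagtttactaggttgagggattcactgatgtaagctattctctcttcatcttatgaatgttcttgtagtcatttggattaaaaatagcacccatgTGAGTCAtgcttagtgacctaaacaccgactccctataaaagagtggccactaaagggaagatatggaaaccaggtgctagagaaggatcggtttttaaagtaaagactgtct
Among the 22 genes 17 had a promoter in the table, and 2 of the 17 (11.8%) held this motif, which reads the same on both strands, against 7.93% of 27025 promoters and 5.20% of the 5632 among the genes tested. The match is a description of the letters. The genes and motifs shown were chosen after the values were seen.

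Ptger2, the receptor through which prostaglandin E2 raises cyclic AMP, had nearly equal shifts, 1.57 in the CD14-deficient and 1.62 in the wild-type pair. Its signal was 532 at 60 h and 179 at 48 h in CD14-deficient cells, and 1034 at 60 h and 337 at 48 h in wild-type cells. That is 2.97-fold and 3.07-fold higher at 60 h. With thapsigargin Ptger2 was brighter than under LPS alone on every array, and its shifts were smaller, 0.39 in the CD14-deficient and 0.18 in the wild-type pair. The heat shock chaperone gene Hspa1a had signals of 251 at 60 h and 91.3 at 48 h in CD14-deficient cells, and 2363 at 60 h and 816 at 48 h in wild-type cells, shifts of 1.46 and 1.53. Its signal was lower in CD14-deficient than in wild-type cells at both times, while the shifts were alike. Its neighbour Hspa1b, a near-identical copy with which probe sets can share targets, was just under the 2-fold rule in CD14-deficient cells, with shifts of 0.97 in the CD14-deficient and 1.22 in the wild-type pair. Of the 11 heat shock genes tested, Hspa1a was the only one 2-fold apart in CD14-deficient cells, and Hspa1a and Hspa1b were the only ones in wild-type cells.

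Decorin (Dcn), a small proteoglycan of connective tissue, had signals of 416 at 60 h and 89.2 at 48 h in CD14-deficient cells, and 2707 at 60 h and 921 at 48 h in wild-type cells, shifts of 2.22 and 1.55. Col5a1, a fibrillar collagen chain, had signals of 263 at 60 h and 57.2 at 48 h in CD14-deficient cells, and 186 at 60 h and 66.5 at 48 h in wild-type cells. The adhesion gene Pcdh7 had signals of 123 at 60 h and 49.6 at 48 h in CD14-deficient cells, and 267 at 60 h and 106 at 48 h in wild-type cells, with shifts of 1.31 and 1.33. In all 3 genes the 60 h array was the brighter one of each genotype. Decorin is also a marker of stromal cells, and over the 9 stromal markers on the array the summed scaled signal was 2539 at 60 h and 1819 at 48 h in CD14-deficient cells, and 3315 at 60 h and 1408 at 48 h in wild-type cells. Dcn supplied most of each wild-type sum, while Fn1 supplied most of each CD14-deficient sum, with 1812 at 60 h and 1340 at 48 h. Only 3 of the 9 were bright enough to be tested, Dcn, Fn1 and Lum, and Dcn was the 1 that was 2-fold apart. Lum had signals of 143 at 60 h and 261 at 48 h in CD14-deficient cells, and 145 at 60 h and 132 at 48 h in wild-type cells. Col1a1, Col1a2, Col3a1, Sparc, Pdgfra and Pdgfrb were dim, at 58.5 or less on the LPS arrays. The sums were not read as cell content. On the unstimulated arrays Dcn was under the floor. The part of stromal cells in these shifts was not tested.

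Among membrane transporters and receptors, the iron exporter Slc40a1 (ferroportin) had signals of 441 at 60 h and 76.6 at 48 h in CD14-deficient cells, and 418 at 60 h and 161 at 48 h in wild-type cells. The difference of its shifts, -1.15 ± 0.32 (wild type minus CD14-deficient, limma adjusted p = 0.0182), passed the test, so the shift was larger in CD14-deficient cells. The glutamate transporter Slc1a2 had nearly equal shifts of 1.05 in the CD14-deficient and 1.06 in the wild-type pair at signals between 187 and 704, and was under the floor on both unstimulated arrays. Notch1, a receptor of cell fate signalling, had signals of 2596 at 60 h and 738 at 48 h in CD14-deficient cells, and 2007 at 60 h and 816 at 48 h in wild-type cells. Its second probe set, also above the filter, gave shifts of 1.38 in the CD14-deficient and 0.24 in the wild-type pair, and so missed the 2-fold rule. Of the 25 genes 2-fold apart in 1 direction in both genotypes, 3 had another probe set above the filter (Cyp1b1, Notch1 and Sgms1). All 3 were higher in both, and 1, that of Cyp1b1, was 2-fold in both. The alpha chain of the interleukin 6 receptor, Il6ra, had shifts of 1.08 and 1.32 and was close to the 2-fold limit. Dimmer probe sets of Il6ra and of Dpys, under the filter, gave wild-type shifts of -0.48 and -0.15.

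Regulators and enzymes made up most of the rest. Rhob, a small GTPase of endosomes and actin, had signals of 3878 at 60 h and 1206 at 48 h in CD14-deficient cells, and 3011 at 60 h and 1246 at 48 h in wild-type cells. Cyp1b1, a cytochrome P450 that oxidises steroids and aromatic hydrocarbons, had signals of 3106 at 60 h and 753 at 48 h in CD14-deficient cells, and 3608 at 60 h and 1555 at 48 h in wild-type cells, and was also 2-fold higher at 60 h in both genotypes with thapsigargin. Spry2, a feedback inhibitor of receptor tyrosine kinase signalling, had shifts of 1.11 in the CD14-deficient and 1.37 in the wild-type pair. The transcription factors Foxf2 (2.26 and 1.32), Mitf (1.65 and 1.05) and Zfp703 (1.16 and 1.36) were higher too, given as the CD14-deficient and then the wild-type shift. The remaining genes were Cav2, a caveolin (2.14 and 1.02), Sgms1, a sphingomyelin synthase (1.93 and 1.02), Ankrd28 (1.87 and 1.09), Golim4 (1.16 and 1.07), Dpys, an enzyme of pyrimidine breakdown (1.28 and 1.20), and Tmem119 (1.05 and 1.48). In the class, shifts ran from 1.05 to 2.53 in CD14-deficient cells, with a median of 1.67, and from 1.02 to 1.86 in wild-type cells, with a median of 1.32. As for Slc40a1, the difference between genotypes was called for Cav2, Mitf and Cyp1b1, with the larger shift in CD14-deficient cells. Limma gave -1.12 ± 0.20 (adjusted p = 0.00225) for Cav2 and -0.60 ± 0.21 (adjusted p = 0.0397) for Mitf. For Cyp1b1 limma gave -0.83 ± 0.30 (adjusted p = 0.0482). Quantile normalization or a floor at the pooled median left 14 of the 22 genes, and a filter at the pooled 75th percentile left 7. Mitf is also a marker of the melanoma cells whose supernatant fed the cultures. The 6 such markers summed to 1973 at 60 h and 714 at 48 h in CD14-deficient cells, and to 1275 at 60 h and 735 at 48 h in wild-type cells, and Mitf itself supplied most of each sum.

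Several genes lay just outside the 2-fold rule in both. Csf3, which encodes the neutrophil growth factor G-CSF, had shifts of 0.96 in the CD14-deficient and 0.99 in the wild-type pair. Ptgir, the prostacyclin receptor, had 2.13 in the CD14-deficient and 0.98 in the wild-type pair. At the other end, Hsf2, a heat shock transcription factor, had -0.99 in the CD14-deficient and -1.07 in the wild-type pair. Among inflammatory genes, Tnf had signals of 678 at 60 h and 254 at 48 h in CD14-deficient cells, and 1721 at 60 h and 937 at 48 h in wild-type cells, and so was higher at 60 h in both but 2-fold apart in CD14-deficient cells alone. The chemokine Ccl7, with shifts of 0.94 in the CD14-deficient and 1.41 in the wild-type pair, was 2-fold apart in wild-type cells alone.

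The 3 genes lower at 60 h in both genotypes were Traf4, Dusp14 and Mx2. Traf4, an adaptor of the TNF receptor-associated family, had signals of 71.9 at 60 h and 487 at 48 h in CD14-deficient cells, and 293 at 60 h and 738 at 48 h in wild-type cells. Its shift was the more negative in CD14-deficient cells by the test of the difference, 1.42 ± 0.29 (limma adjusted p = 0.00472). That of Mx2 was too, at 2.45 ± 0.43 (limma adjusted p = 0.00218). Dusp14, a phosphatase that acts on MAP kinases, had signals of 219 at 60 h and 546 at 48 h in CD14-deficient cells, and 492 at 60 h and 1239.8 at 48 h in wild-type cells, with shifts of -1.32 and -1.33. Mx2, an antiviral GTPase induced by interferon, had signals of 14.4 at 60 h and 169 at 48 h in CD14-deficient cells, and 341 at 60 h and 733 at 48 h in wild-type cells, and the CD14-deficient signal at 60 h was close to the floor. The common test gave unadjusted p-values of 0.00585 for Traf4, 0.0159 for Dusp14 and 0.0104 for Mx2, and an adjusted p of 1.00 for each. Stat4 and Taf1d had the next smallest p-values of the common test among the lower genes, with shifts of -2.08 in the CD14-deficient and -0.76 in the wild-type pair for Stat4 and -1.91 in the CD14-deficient and -0.93 in the wild-type pair for Taf1d. For Taf1d, 2 other probe sets above the filter gave wild-type shifts of 0.40 and -0.05, so its wild-type shift rests on 1 probe set.

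The thapsigargin arrays gave the same measure in samples that the classes did not use. Of the 22 genes, 21 (95.5%) were higher at 60 h in both genotypes with thapsigargin, where 2879 of all genes tested (42.2%) were; the exception was Il6ra. Mmp10, Cyp1b1, Pcdh7 and Cav2 were 2-fold higher in both there, 4 of 22, where 17 of all genes tested (0.249%) were. The median shift of the 22 in those arrays was 0.71 for CD14-deficient and 0.48 for wild-type cells. Of the 3 lower genes, Traf4 and Dusp14 were also lower in both with thapsigargin, where 2083 of all genes tested (30.5%) were, and Mx2 was not; 7 genes (0.103%) were 2-fold lower in both there. Among genes 2-fold higher in wild-type cells and within 0.5 in CD14-deficient cells, 95 of 114 (83.3%) were likewise higher in both with thapsigargin. A high share is therefore not particular to the 22. For the reverse class the count was 159 of 353 (45.0%), close to the share of all genes tested. These counts describe the same direction in other arrays and carry no test.

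**Figure D3:**
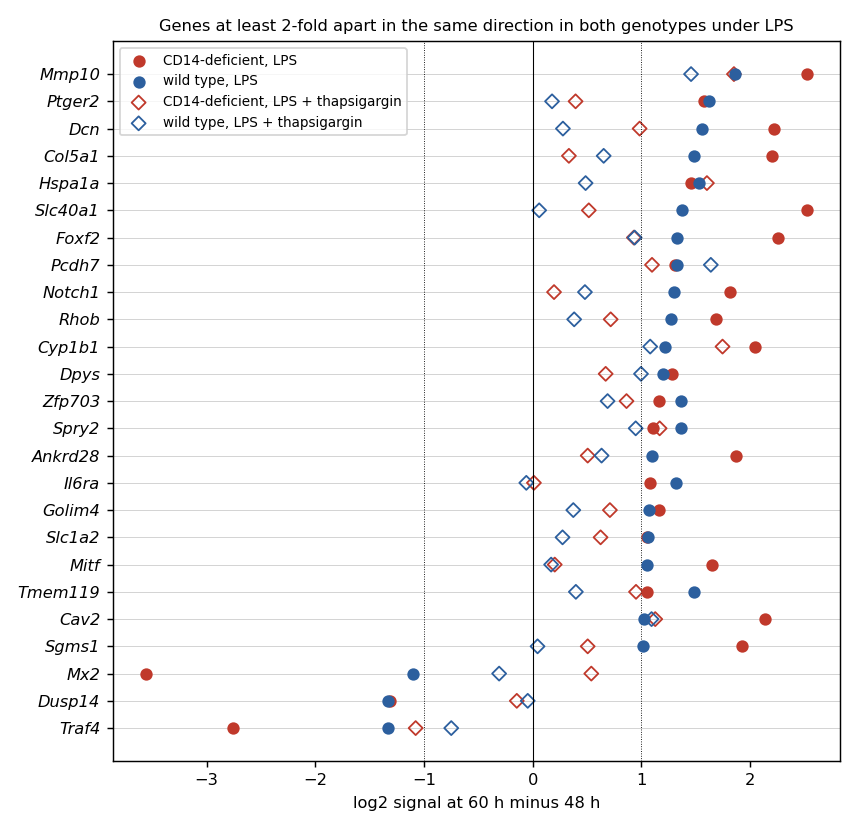
Log2 signal at 60 h minus 48 h of the 25 genes that were 2-fold apart in 1 direction in both genotypes, under LPS alone (filled circles) and under LPS with thapsigargin (open diamonds), in CD14-deficient cells (red) and wild-type cells (blue). Dotted lines mark 2-fold; 21 of the 22 upper genes lay above 0 in both thapsigargin pairs.

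Across genes, the CD14-deficient shift under LPS had a Pearson correlation of 0.08 with the CD14-deficient thapsigargin shift and of -0.07 with the wild-type one. For the wild-type shift under LPS these correlations were 0.51 and 0.44. The arrays of each such pair are different, but genes are not independent and no test was made.

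Of the 99 genes that moved in opposite directions, 55 (0.806%) were higher at 60 h in CD14-deficient cells and lower in wild-type cells. Itgax, which encodes CD11c, the marker used to judge the cultures, had signals of 6941 at 60 h against 892 at 48 h in CD14-deficient cells and 1002 against 2921 in wild-type cells. The difference of the shifts was -4.50 ± 0.16 (limma adjusted p = 6.26e-06), and the 2 extreme signals both belong to the CD14-deficient pair. Itgam, the CD11b chain of the same integrin family, had signals of 1514 at 60 h against 186 at 48 h in CD14-deficient cells and 328 against 1265 in wild-type cells. Rbp4, which carries retinol, had the most negative difference of the named genes, -5.98 ± 0.21, with signals of 6466 at 60 h against 248 at 48 h in CD14-deficient cells and 1037 against 2514 in wild-type cells. The largest smaller-of-the-two shifts belonged to Acox3, Plet1, Itgam and Cenpb. Plet1, a surface glycoprotein, had signals of 4739 at 60 h against 880.1 at 48 h in CD14-deficient cells and 1107 against 4671 in wild-type cells. Acox3, a peroxisomal oxidase of branched lipids, had signals of 395 at 60 h against 69.6 at 48 h in CD14-deficient cells and 60.6 against 279.9 in wild-type cells. In each of these genes the wild-type signal was higher at 48 h and the CD14-deficient signal at 60 h. Cenpb, which binds centromeric DNA, had shifts of 3.08 in the CD14-deficient and -1.76 in the wild-type pair. A dimmer probe set of Plet1, under the filter, gave a wild-type shift of 0.13, and that of Cenpb lay at the floor and could show no shift.

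The other 44 (0.645%) were lower at 60 h in CD14-deficient cells and higher in wild-type cells. Marveld1, a membrane protein gene, had signals of 373 at 60 h against 2077 at 48 h in CD14-deficient cells and 223 against 62.9 in wild-type cells, a difference of 4.30 ± 0.26 (limma adjusted p = 2.02e-05). Haao, an enzyme of tryptophan breakdown, had signals of 278 at 60 h against 924 at 48 h in CD14-deficient cells and 52.9 against 4.94 in wild-type cells, and its lowest signal lay under the floor. Tasor2 had signals of 161 at 60 h against 469 at 48 h in CD14-deficient cells and 371 against 113 in wild-type cells. Nfat5, the NFAT relative that responds to osmotic stress, had signals of 519 at 60 h against 1534 at 48 h in CD14-deficient cells and 970.3 against 349 in wild-type cells, although a probe set near the floor gave a CD14-deficient shift of 0.43. Zbtb18, a transcriptional repressor, had signals of 2568 at 60 h against 5789 at 48 h in CD14-deficient cells and 3389.5 against 1265 in wild-type cells. With thapsigargin, 42 of the 55 genes (76.4%) were lower at 60 h in both genotypes, as in wild-type cells under LPS, against 30.5% of all genes tested, and 22 of the 44 (50%) were higher in both, against 42.2% of all genes tested.

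Genes that were 2-fold apart in CD14-deficient cells and within a log2 of 0.5 in wild-type cells numbered 646 (9.47%), 353 higher (5.18%) and 293 lower (4.3%) at 60 h. Cathepsin K (Ctsk), a lysosomal protease, led the higher ones with 3601 at 60 h against 173 at 48 h in CD14-deficient cells and 2442 against 3324 in wild-type cells. Chchd10, a mitochondrial protein gene, had signals of 3036 at 60 h against 177 at 48 h in CD14-deficient cells and 1901 against 2605 in wild-type cells. Gask1b (shifts of 4.06 and 0.21), the peptide hormone gene Cck (4.00 and 0.10) and Myof, which acts in membrane repair (3.96 and -0.01), followed. Each of these 5 was dimmest, among the 4 arrays, on the CD14-deficient array at 48 h. The lower ones were led by the adhesion gene L1cam (-2.49 and -0.06), the growth factor Fgf1 (-2.45 and -0.29), Pik3r1, a regulatory subunit of PI 3-kinase (-2.43 and -0.17), Arc (-2.37 and 0.06) and Cd70, a costimulatory ligand (-2.37 and -0.16). Of 2 other probe sets of Pik3r1 above the filter, 1 gave shifts of -1.03 and -0.01 and the other -0.56 and -0.85, so they disagree on the wild-type shift. The second probe sets of Myof and L1cam lay near or under the floor on all 4 arrays and could not show these shifts. In the thapsigargin arrays 159 of the 353 (45.0%) were higher at 60 h in both genotypes and 119 of the 293 (40.6%) were lower in both, against 42.2% and 30.5% of all genes tested.

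Macrophage genes were nearly all higher at 60 h in CD14-deficient cells. Of the list's 11 genes tested, 9 were 2-fold higher and 0 lower at 60 h in CD14-deficient cells, with a median shift of 1.81, while 0 were higher and 5 lower in wild-type cells, with a median of -0.53. Over all genes tested, 8.87% were 2-fold higher and 6.89% lower in CD14-deficient cells, with a median of -0.05. In wild-type cells 4.02% were higher and 1.35% lower, with a median of 0.08. The counts of the lists below stand beside the same shares. The difference between genotypes passed limma's test in all 11, where 49.1% of all genes tested did. Among the 11, Cd68 also stands in the lysosome list, and Msr1, Fcgr1 and Marco in that of uptake receptors. Cd68, a lysosomal membrane protein of macrophages, had signals of 9656 at 60 h against 1702 at 48 h in CD14-deficient cells and 7887 against 10864 in wild-type cells, a difference of -2.97 ± 0.12 (limma adjusted p = 6.49e-06). Csf1r, the receptor for the growth factor M-CSF, had signals of 9905 at 60 h against 4199 at 48 h in CD14-deficient cells and 9420.2 against 10095 in wild-type cells. Both were lowest on the CD14-deficient array at 48 h and less far apart in wild-type cells. The scavenger receptor Msr1 had signals of 3826 at 60 h against 757 at 48 h in CD14-deficient cells and 2523 against 3638 in wild-type cells. Its 3 other probe sets above the filter gave CD14-deficient shifts between 2.27 and 2.67 and wild-type shifts of -1.40, -1.20 and 0.91. Mertk, which takes up dying cells, had signals of 918 at 60 h against 226 at 48 h in CD14-deficient cells and 258 against 355 in wild-type cells. The 3 chains of complement C1q moved oppositely in the genotypes. C1qa had signals of 728 at 60 h against 220.2 at 48 h in CD14-deficient cells and 142 against 408 in wild-type cells. C1qb had shifts of 2.27 in the CD14-deficient and -1.51 in the wild-type pair, though 1 of its 2 other probe sets above the filter gave -0.05 in CD14-deficient cells, and C1qc had 1.87 in the CD14-deficient and -1.37 in the wild-type pair. Trem2, a lipid-sensing receptor outside the list, had signals of 4174 at 60 h against 258 at 48 h in CD14-deficient cells and 1332 against 2359.6 in wild-type cells, while a probe set near the floor gave a CD14-deficient shift of -0.65. The summed scaled signal of the 16 macrophage markers was 46659 at 60 h and 21824 at 48 h in CD14-deficient cells, and 42223 at 60 h and 50256 at 48 h in wild-type cells, so the CD14-deficient 48 h array was the low one. In these bulk samples, fewer cells of a type and less RNA per cell cannot be told apart.

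The promoter of Cd68 is shown because, among the tested macrophage markers with a promoter, it alone held the letters of an AP-1 element. The window (RefSeq, GRCm38.p6, minus strand, chr11:69666121-69666420) runs from 250 bases before to 50 bases after the start. Capitals mark its 2 matches to the AP-1 element TGANTCA, which begin 149 and 24 bases before the start.
Cd68: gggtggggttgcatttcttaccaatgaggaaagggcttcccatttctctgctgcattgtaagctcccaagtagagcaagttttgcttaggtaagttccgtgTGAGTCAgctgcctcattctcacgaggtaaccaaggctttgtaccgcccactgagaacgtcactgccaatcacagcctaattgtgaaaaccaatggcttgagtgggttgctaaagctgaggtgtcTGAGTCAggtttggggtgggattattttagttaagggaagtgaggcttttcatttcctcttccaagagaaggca
Of 7 macrophage markers with a promoter in the table, only Cd68, 1 of 7 (14.3%), held the motif. It was held by 7.93% of all promoters and by 5.20% of those of the genes tested. Among the interferon-response genes described below, 7 of 22 (31.8%) held it.

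Lysosomal and uptake genes moved with the macrophage markers. Among all genes tested, 8.87% were 2-fold higher in CD14-deficient cells and 1.35% lower in wild-type cells. Of 25 lysosome genes tested, 8 were 2-fold higher and 0 lower at 60 h in CD14-deficient cells (median shift 0.77), and 0 were 2-fold apart in wild-type cells (median -0.15). Alpha-galactosidase (Gla) had signals of 2999 at 60 h against 576 at 48 h in CD14-deficient cells and 3589 against 5135 in wild-type cells. The lipase Lipa had signals of 5224 at 60 h against 1152 at 48 h in CD14-deficient cells and 2902 against 3758 in wild-type cells. Of 13 lectin and uptake receptor genes, 9 were higher and 1 lower in CD14-deficient cells (median 1.25), and 0 were higher and 3 lower in wild-type cells (median -0.14). The beta-glucan receptor Clec7a had signals of 13244 at 60 h against 4904 at 48 h in CD14-deficient cells and 10117 against 11502 in wild-type cells. The scavenger receptor Cd36 had signals of 4055 at 60 h against 931 at 48 h in CD14-deficient cells and 4165 against 4244 in wild-type cells. The exception, Ly75 (DEC-205), had signals of 165 at 60 h against 346 at 48 h in CD14-deficient cells and 221 against 145 in wild-type cells. All of the genes in this paragraph but Ly75 were lowest, among the 4 arrays, on the CD14-deficient array at 48 h.

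Antioxidant genes controlled by Nrf2 were a further such group. Among all genes tested, 8.87% were 2-fold higher in CD14-deficient cells and 4.02% in wild-type cells. Of 19 tested, 9 were 2-fold higher and 0 lower at 60 h in CD14-deficient cells (median 0.77), and 1, the glutathione reductase gene Gsr, was higher in wild-type cells (median -0.08; a second probe set of Gsr gave 0.55). Hmox1, which degrades haem, had signals of 4982 at 60 h against 711 at 48 h in CD14-deficient cells and 4592 against 4852 in wild-type cells. Nqo1, a quinone reductase, had signals of 666 at 60 h against 106 at 48 h in CD14-deficient cells and 402 against 770.5 in wild-type cells. Gclc, the catalytic subunit for the first step of glutathione synthesis, had signals of 742 at 60 h against 246 at 48 h in CD14-deficient cells and 1189 against 768 in wild-type cells. In all 3 the CD14-deficient 48 h array was the low one. The glutathione transferase Gstm1, outside the list, had a difference of -3.30 ± 0.14 (limma adjusted p = 6.49e-06). Of 25 glycolysis and hypoxia genes, 8 were higher and 2 lower in CD14-deficient cells (median 0.77) and 0 were 2-fold apart in wild-type cells (median -0.29). The pyruvate kinase gene Pkm had signals of 5574 at 60 h against 2022 at 48 h in CD14-deficient cells and 3645 against 5914 in wild-type cells. Aldoc, an aldolase, had signals of 2008 at 60 h against 670.2 at 48 h in CD14-deficient cells and 469.6 against 744 in wild-type cells. The 2 exceptions were Pfkfb3, with shifts of -1.66 in the CD14-deficient and 0.51 in the wild-type pair, and Ndrg1, a hypoxia-induced gene, at 1098 at 60 h against 4537 at 48 h in CD14-deficient cells and 4207 against 3473 in wild-type cells.

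Maturation genes ran the other way. Among all genes tested, 6.89% were 2-fold lower in CD14-deficient cells and 4.02% higher in wild-type cells. Of 19 tested, 0 were 2-fold higher and 10 lower at 60 h in CD14-deficient cells (median -1.17), while 1, the tryptophan-degrading enzyme gene Ido1, was higher and 0 lower in wild-type cells (median 0.11), and the difference between genotypes was called in 16 of the 19, 14 of them with the more positive wild-type shift, where 49.1% and 29% of all genes tested were. Ccr7, which guides dendritic cells to lymph nodes, had signals of 7190.2 at 60 h against 16168 at 48 h in CD14-deficient cells and 6408 against 3531 in wild-type cells, a difference of 2.03 ± 0.12 (limma adjusted p = 1.5e-05). The costimulatory ligand gene Cd86 had signals of 3078 at 60 h against 8105 at 48 h in CD14-deficient cells and 5488 against 6327 in wild-type cells. The maturation marker Cd83 had signals of 4622 at 60 h against 12519 at 48 h in CD14-deficient cells and 6961 against 5975 in wild-type cells. Cd40, which receives T cell help, had shifts of -1.21 in the CD14-deficient and 0.11 in the wild-type pair. Tnfsf4, the OX40 ligand, had signals of 337 at 60 h against 2058 at 48 h in CD14-deficient cells and 1098 against 754 in wild-type cells. For these 5 genes the CD14-deficient 48 h array was the brightest of the 4. The NF-kappaB family moved with them: of 12 genes, 0 were higher and 5 lower in CD14-deficient cells (median -0.93), and 1, Ikbke, was higher in wild-type cells (median 0.24). Relb, a subunit of the alternative pathway, had signals of 1181 at 60 h against 3334 at 48 h in CD14-deficient cells and 1314 against 1205 in wild-type cells. Its partner Nfkb2 had signals of 672 at 60 h against 1600.5 at 48 h in CD14-deficient cells and 816 against 741 in wild-type cells, and a dimmer probe set above the filter gave shifts of -0.96 and 1.48.

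Several dendritic cell identity genes were also highest on the CD14-deficient 48 h array. Of 14 tested, 1 was 2-fold higher and 6 lower at 60 h in CD14-deficient cells (median -0.77), and 1 was higher and 1 lower in wild-type cells (median -0.33). The lineage factor Zbtb46 had signals of 257 at 60 h against 874 at 48 h in CD14-deficient cells and 141 against 242 in wild-type cells. Batf3, needed for cross-presenting cells, had signals of 1229 at 60 h against 3488 at 48 h in CD14-deficient cells and 713 against 903 in wild-type cells. The growth factor receptor gene Flt3 had signals of 334 at 60 h against 1149 at 48 h in CD14-deficient cells and 65.7 against 84.7 in wild-type cells, and so was dim in wild-type cells at both times. Ciita, the master regulator of class II genes, had signals of 454 at 60 h against 1459.9 at 48 h in CD14-deficient cells and 249 against 185 in wild-type cells, while another probe set above the filter gave shifts of -0.58 and -0.39. The class II genes of the presentation list themselves shifted little. Of its 9 genes tested, Ifi30 was 2-fold higher and Ciita lower in CD14-deficient cells and 0 were 2-fold apart in wild-type cells. H2-DMb2, which is not on that list, was 2-fold lower at 60 h in wild-type cells, with a shift of -2.13. The summed signal of the 16 dendritic markers was 77289 at 60 h and 101512 at 48 h in CD14-deficient cells, and 58286 at 60 h and 65722 at 48 h in wild-type cells. Itgax went against the other dendritic markers in CD14-deficient cells and moved with the macrophage markers.

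**Figure D4:**
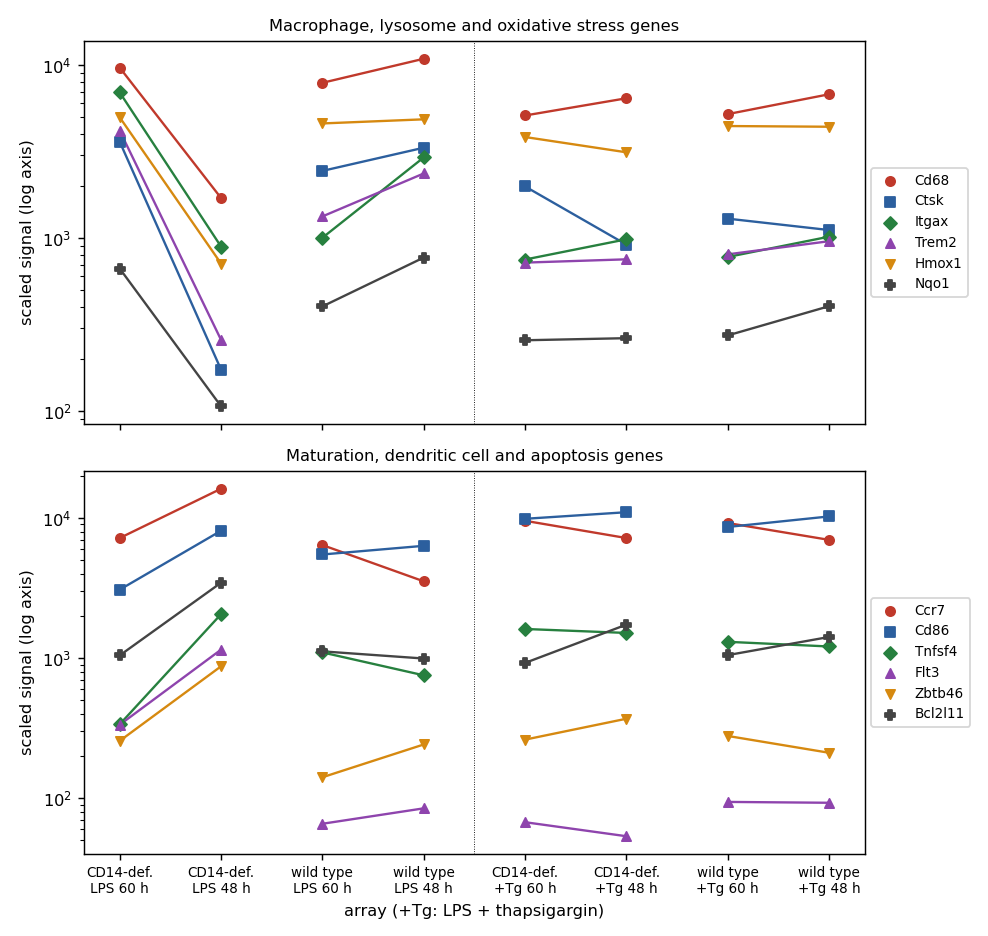
Scaled signal (log axis) of 12 genes on the 8 stimulated arrays, 60 h left of 48 h in each pair, CD14-deficient before wild type, and LPS alone left of LPS with thapsigargin (Tg). The CD14-deficient LPS array at 48 h was the lowest of the 4 LPS arrays for Cd68, Ctsk, Itgax, Trem2, Hmox1 and Nqo1 and the highest for Ccr7, Cd86, Tnfsf4, Flt3, Zbtb46 and Bcl2l11.

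In the 2-fold genes of CD14-deficient cells, the 48 h array was more often the extreme one than the 60 h array. Among the 8 stimulated arrays, the 48 h array was the lowest in 436 of the 605 genes higher at 60 h. It was the highest in 371 of the 470 genes lower at 60 h. Of all 6821 genes, it was lowest in 1657 and highest in 1869. The 60 h array was the highest in 305 of the 605 and the lowest in 184 of the 470. Its counts over all genes were 1156 and 1199. In wild-type cells the 48 h array was the lowest in 171 of the 274 genes higher at 60 h, against 1545 of all genes. The wild-type 60 h array was the highest in 82, against 603. Both arrays of a pair enter the 2-fold rule, so shares above those of all genes follow in part from how the genes were chosen. No second array of either condition exists among these samples, so the CD14-deficient shift cannot be given without its 48 h array. In the 10-array model, leaving out either wild-type LPS array leaves the CD14-deficient shift, for which limma called 3277 (48%) or 3278 (48.1%) genes against the spread of the thapsigargin arrays. Leaving out either CD14-deficient array leaves the wild-type shift, with 1683 or 1682 genes (24.7%).

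Genes 2-fold apart in wild-type cells and within a log2 of 0.5 in CD14-deficient cells numbered 131 (1.92%), 114 higher (1.67%) and 17 lower (0.249%) at 60 h. Dusp6, a phosphatase that limits ERK signalling, led the higher ones with 993 at 60 h against 752 at 48 h in CD14-deficient cells and 2080.2 against 373 in wild-type cells. It was also more than 2-fold higher at 60 h in both thapsigargin pairs, at 582 at 60 h and 177 at 48 h in CD14-deficient cells, and 1088 at 60 h and 437 at 48 h in wild-type cells. Ap4b1, a subunit of a trafficking adaptor, had signals of 415 at 60 h against 469 at 48 h in CD14-deficient cells and 655 against 120.0 in wild-type cells, but a dimmer probe set, under the filter, gave a wild-type shift of -0.40. Zfp329 (-0.07 and 2.20), the sulfotransferase gene Chst14 (0.14 and 2.12) and AI504432 (0.27 and 2.06) followed, with the wild-type 48 h array as the low one in each. With thapsigargin, 95 of the 114 (83.3%) were higher at 60 h in both genotypes, against 42.2% of all genes tested.

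The 17 lower genes were led by H2-DMb2, which helps load class II molecules with peptide, at 1011 at 60 h against 738 at 48 h in CD14-deficient cells and 159.7 against 698 in wild-type cells. Mgl2, a lectin of some dendritic cells and macrophages, had signals of 246 at 60 h against 305 at 48 h in CD14-deficient cells and 226 against 888 in wild-type cells. Tmem41b (0.45 and -1.49) and Klk1b27 (0.08 and -1.38) had their lowest signal on the wild-type 60 h array. The shift of Tmem41b rests on 1 probe set: the 3 others above the filter gave wild-type shifts of -0.18, -0.34 and 0.03. Cxcl9, a chemokine induced by interferon gamma, had signals of 60.7 at 60 h against 54.7 at 48 h in CD14-deficient cells and 145 against 385 in wild-type cells, and was 2-fold lower at 60 h in both genotypes with thapsigargin. In all, 13 of the 17 (76.5%) were lower in both genotypes with thapsigargin, against 30.5% of all genes tested.

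Interferon-response genes were among those lower at 60 h in wild-type cells, where 1.35% of all genes tested were 2-fold lower. In CD14-deficient cells 8.87% of all were 2-fold higher and 6.89% lower. Of 30 tested, 5 were 2-fold higher and 3 lower in CD14-deficient cells, with a median shift of 0.25, and 0 were higher and 6 lower in wild-type cells, with a median of -0.40. Isg20, an antiviral exonuclease, had signals of 156 at 60 h against 98.8 at 48 h in CD14-deficient cells and 480.2 against 2418 in wild-type cells. Ifit3, an antiviral effector, had signals of 219 at 60 h against 174 at 48 h in CD14-deficient cells and 1409.5 against 3491 in wild-type cells. Its relative Ifit2 had signals of 201 at 60 h against 95.4 at 48 h in CD14-deficient cells and 742 against 2039 in wild-type cells. Cmpk2 had shifts of 1.03 in the CD14-deficient and -1.37 in the wild-type pair, and Oasl1 had -0.15 in the CD14-deficient and -1.07 in the wild-type pair. Mx2 was the member lower in both genotypes, and Mx1 was lower in CD14-deficient cells alone, at 1309 at 60 h against 3241 at 48 h in CD14-deficient cells and 749.9 against 693 in wild-type cells. Apart from Mx1, the genes in this paragraph had higher signals in wild-type than in CD14-deficient cells at both times.

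The Ifit3 promoter is shown because it holds the core of the interferon-stimulated response element, searched on both strands as GAAA, any 2 bases, GAAA. The RefSeq window (GRCm38.p6, plus strand, chr19:34583279-34583578) again runs from 250 bases before to 50 bases after the start, and its 2 matches, in capitals, lie on the opposite strand and begin 156 and 122 bases before the start.
Ifit3: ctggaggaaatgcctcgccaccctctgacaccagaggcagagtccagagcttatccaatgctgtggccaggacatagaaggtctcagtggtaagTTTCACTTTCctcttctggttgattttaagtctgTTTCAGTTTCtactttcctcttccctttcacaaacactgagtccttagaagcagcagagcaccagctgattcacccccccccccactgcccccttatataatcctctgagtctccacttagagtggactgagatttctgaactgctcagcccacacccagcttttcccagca
Of 22 interferon-response genes with a promoter in the table, 13 (59.1%) held the core, against 3.49% of all promoters, and 0 of the 17 promoters of genes higher in both genotypes did.

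A few genes of amino acid supply and early response were 2-fold higher at 60 h in wild-type cells, as were 4.02% of all genes tested. In CD14-deficient cells 8.87% of all were higher and 6.89% lower. Asns, which makes asparagine, had signals of 119.8 at 60 h against 204 at 48 h in CD14-deficient cells and 541 against 133 in wild-type cells. The amino acid transporter gene Slc38a2 had shifts of -0.58 in the CD14-deficient and 1.31 in the wild-type pair, and Slc7a5 had -1.53 in the CD14-deficient and 1.16 in the wild-type pair. Of the 21 genes of that list, 3 were 2-fold higher and 4 lower in CD14-deficient cells, and 3 were higher and 0 lower in wild-type cells. Of 19 immediate early genes, 2 were higher and 8 lower in CD14-deficient cells (median -0.13), and 3 were higher and 0 lower in wild-type cells (median 0.33). Egr1 had signals of 465 at 60 h against 1027 at 48 h in CD14-deficient cells and 1102 against 333 in wild-type cells, opposite in direction. Its relative Egr2 had signals of 2054 at 60 h against 370.2 at 48 h in CD14-deficient cells and 446 against 237 in wild-type cells, higher at 60 h in both. Myc, the growth regulator, had shifts of 0.84 in the CD14-deficient and 1.80 in the wild-type pair.

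Inflammatory genes were split. Among all genes tested, 8.87% were 2-fold higher and 6.89% lower in CD14-deficient cells, and 4.02% and 1.35% in wild-type cells. Of 25 tested, 5 were 2-fold higher and 4 lower in CD14-deficient cells (median 0.15), and 2 were higher and 1 lower in wild-type cells (median 0.21). The chemokine gene Ccl4 had signals of 2892 at 60 h against 567 at 48 h in CD14-deficient cells and 5359 against 3057 in wild-type cells, higher at 60 h in both. Il6 had signals of 4347 at 60 h against 8829 at 48 h in CD14-deficient cells and 13008 against 9791 in wild-type cells. Il12b, the subunit shared by the interleukins IL-12 and IL-23, had signals of 1767 at 60 h against 5124 at 48 h in CD14-deficient cells and 4115 against 5184 in wild-type cells. By the 2-fold rule both were lower in CD14-deficient cells alone. Lif went in opposite directions, at 302 at 60 h against 937 at 48 h in CD14-deficient cells and 760.0 against 362 in wild-type cells.

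In the lists of apoptosis genes, which gave the series its aim, the 2-fold genes all lay in the CD14-deficient pair. Over all genes tested 15.8% were 2-fold apart in CD14-deficient cells and 5.37% in wild-type cells. Of 7 proapoptotic Bcl2 relatives, 0 were 2-fold higher and 2 lower at 60 h in CD14-deficient cells, and 0 were 2-fold apart in wild-type cells. Bcl2l11, which encodes the killer protein Bim, had signals of 1045 at 60 h against 3451 at 48 h in CD14-deficient cells and 1117 against 993 in wild-type cells. Pmaip1 (Noxa) had signals of 1293 at 60 h against 3262 at 48 h in CD14-deficient cells and 1784 against 1386 in wild-type cells. Of 12 survival genes, 11 were lower at 60 h by any amount in CD14-deficient cells and 3 in wild-type cells, with medians of -0.44 and 0.18. The difference was called in 8 of the 12, all with the more positive wild-type shift, where 29% of all genes tested were. Traf1 and Birc2 were 2-fold lower in CD14-deficient cells and 0 survival genes were 2-fold apart in wild-type cells. Traf1 had shifts of -1.20 in the CD14-deficient and 0.10 in the wild-type pair, and Birc2 had -1.26 in the CD14-deficient and 0.94 in the wild-type pair. Of 8 death receptor genes, the necroptosis kinase Ripk3 was the 1 that was 2-fold apart, higher in CD14-deficient cells, at 493 at 60 h against 85.9 at 48 h in CD14-deficient cells and 199 against 168 in wild-type cells. Of 14 caspase and execution genes, Cycs was 2-fold higher and Casp2 and Apaf1 were lower in CD14-deficient cells, and 0 were 2-fold apart in wild-type cells. Of 18 p53 genes, 2 were higher and 2 lower in CD14-deficient cells and 0 in wild-type cells.

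For the lists that follow, 8.87% of all genes tested were 2-fold higher and 6.89% lower in CD14-deficient cells. In wild-type cells these shares were 4.02% and 1.35%. Of 23 unfolded protein response genes, 2 were 2-fold higher and 1 lower in CD14-deficient cells and 0 were in wild-type cells. Of 17 calcium and NFAT genes, 1 was higher and 2 lower in CD14-deficient cells, and 1, Nfat5, was higher in wild-type cells. Of 28 ribosomal protein genes, 0 were 2-fold apart in CD14-deficient cells and Rpl12 was higher in wild-type cells, with medians of -0.35 and 0.04, and 21 had a called difference with the more positive wild-type shift, against 29% of all genes tested. Of 27 oxidative phosphorylation genes, 14 had a called difference of the reverse sign, against 20.2% of all genes tested, with medians of 0.33 for CD14-deficient and -0.15 for wild-type cells. Of 12 cell division genes, 0 were higher and 5 lower in CD14-deficient cells (median -0.52), where 6.89% of all genes tested were 2-fold lower, and 1, Rrm1, was higher in wild-type cells (median 0.19). The 5 were Rrm1 and the replication helicase genes Mcm2, Mcm3, Mcm6 and Mcm7. Of 16 genes of AU-rich element binding and RNA decay, 2 were higher and 3 lower in CD14-deficient cells (median -0.52), and 2 were higher in wild-type cells (median 0.41). One of these was Tia1, which represses translation, at 359 at 60 h against 583 at 48 h in CD14-deficient cells and 307 against 116 in wild-type cells. Of 17 sterol genes, 1 was higher and 1 lower in CD14-deficient cells. Among 10 housekeeping genes, 11 class I presentation genes and 7 LPS receptor genes, 0 were 2-fold apart in either genotype.

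**Figure D5:**
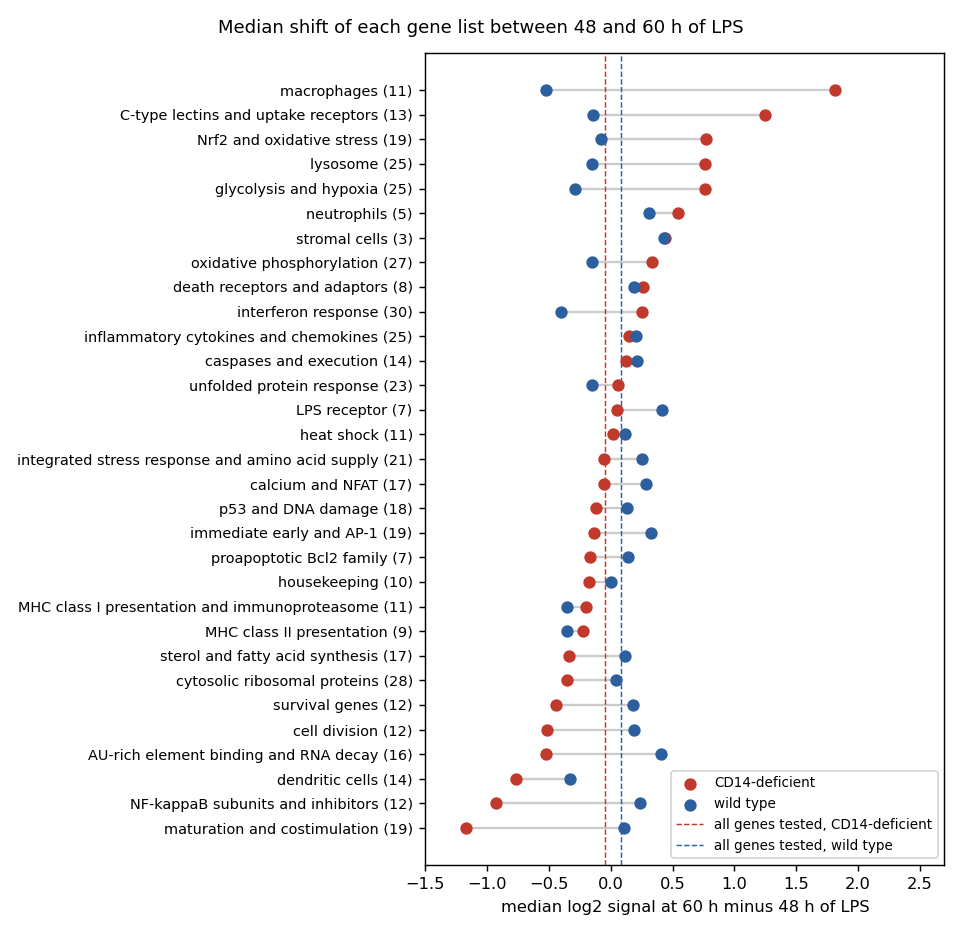
Median log2 signal at 60 h minus 48 h of LPS for each gene list with at least 3 genes tested (number in brackets), in CD14-deficient cells (red) and wild-type cells (blue), with dashed lines at the medians of all genes tested. Macrophage genes lay farthest up in CD14-deficient cells (1.81) and maturation genes farthest down (-1.17), while wild-type medians ran from -0.53 to 0.43.

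Markers of other cells were mostly dim. The 13 neutrophil markers summed to 18468 at 60 h and 10016 at 48 h in CD14-deficient cells, and to 20704 at 60 h and 16549 at 48 h in wild-type cells. Of the 5 tested, the collagenase gene Mmp8 was higher in CD14-deficient cells, at 9582 at 60 h against 1264 at 48 h in CD14-deficient cells and 7899 against 5919 in wild-type cells, and the gelatinase gene Mmp9 was higher in wild-type cells, with shifts of 0.94 in the CD14-deficient and 1.54 in the wild-type pair. A second probe set of Mmp9 gave 1.36 and 0.76. Mast cell markers summed to 972 at 60 h and 1338 at 48 h in CD14-deficient cells, and to 2019 at 60 h and 1295 at 48 h in wild-type cells, with Cma1 and Ms4a2 at the floor throughout. B cell markers summed to 3555 at 60 h and 2712 at 48 h in CD14-deficient cells, and to 3953 at 60 h and 4259 at 48 h in wild-type cells. Erythroid markers summed to 2284 at 60 h and 4387 at 48 h in CD14-deficient cells, and 1498 at 60 h and 1760 at 48 h in wild-type cells. Lcn2 and Mmp8 together supplied most of each neutrophil sum. Lcn2 gave 6172 at 60 h and 6533 at 48 h in CD14-deficient cells, and 10463 at 60 h and 8424 at 48 h in wild-type cells. Its unstimulated signal was lower, at 257 in wild-type cells and 373 in those lacking CD14. Single genes supplied most of the mast, B and erythroid cell sums. None of the neutrophil, mast, B and erythroid cell sums was read as cell content. Hdc gave 750 at 60 h and 809 at 48 h in CD14-deficient cells, and 1716 and 970 in wild-type cells. It was under the floor on the unstimulated arrays. In the same order, Blnk gave 3087 and 2015, then 3733 and 4110, of the B cell sums. Car2 gave 2209 and 4349, then 1427 and 1699, of the erythroid sums. The 9 T and NK cell markers summed to between 81.7 and 123 on the 4 arrays.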

How the data were processed

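The authors deposited 1 linear intensity per probe set and array, a MAS5 signal per the submitters' processing notes (its version and target: not given in the sources used here). RNA integrity, input and yield were copied from the labels. The 22690 probe sets included 64 controls; 20393 carried 1 symbol in the platform table, 691 several and 1606 none, and 20364 of the 20393 matched RefSeq (GRCm38.p6) by Entrez ID with 0 symbols changed. Arrays had 2% trimmed means of 444 to 553 as deposited, and each was scaled to 509. Signals under the pooled 25th percentile, 13.4, were set to it and log2 was taken. A gene was represented by its brightest probe set with a single symbol and tested when its mean log2 over the 4 LPS arrays reached the pooled median, 99.2. A fold against a signal under the floor is a lower bound.

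Limma 3.58.1 in R 4.3.3 fitted the common shift (4 arrays, genotype as block, prior degrees of freedom 5.52) and the difference between genotypes (10 arrays, 1 common thapsigargin time term, prior 7.33), with an intensity trend, two-sided p-values and Benjamini-Hochberg adjustment over the 6821 genes at a threshold of 0.05. Both were run on simulated data in which the spread of every array was taken from the thapsigargin arrays. Such data cannot show how the fits behave if the LPS arrays vary more. Counts by the 2-fold rule carry no test, since each condition is 1 array. Named genes were, per direction, up to 8 genes 2-fold in both genotypes, those with the largest smaller-of-the-two shift. To these came 5 for each class 2-fold in 1 genotype and within 0.5 in the other, and 4 that moved oppositely. Further ones were 5 with the smallest p of each fit, up to 4 members a list, and Cd14. Other genes were named after their values were seen. The comparison, its members and the 36 gene lists were chosen with earlier results of these data known. Alternatives were the deposited scale, quantile normalization, other floors and filters, the second brightest probe set, no trend, no block, all 10 arrays and leaving out each array. With so few arrays, precision is limited throughout. Figures were drawn in Python with matplotlib.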

Additional observations from a re-analysis of the deposited data

Results flagged for a closer look

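The shift between 48 and 60 h of LPS differed between the genotypes, by limma's test of the difference, in 3352 genes. This test takes its spread from the thapsigargin arrays. Without a test, 99 genes were 2-fold apart in opposite directions in the single pair of arrays of each genotype. The 5 genes with the smallest p on each side are given as the wild-type shift minus the CD14-deficient shift (log2, ± SE). On the side of the more positive wild-type shift were Ccr7 (2.03 ± 0.12), Marveld1 (4.30 ± 0.26), Zbtb18 (2.59 ± 0.16), Ndrg1 (2.32 ± 0.15) and Tnfsf4 (3.15 ± 0.21), with adjusted p-values from 1.5e-05 to 2.59e-05. On the side of the more positive CD14-deficient shift were Rbp4 (-5.98 ± 0.21), Itgax (-4.50 ± 0.16), Cd68 (-2.97 ± 0.12), Trem2 (-4.84 ± 0.19) and Gstm1 (-3.30 ± 0.14), with adjusted p-values of 6.26e-06 or 6.49e-06. In each of the 10 the CD14-deficient array at 48 h was the highest or the lowest of the 4 LPS arrays. This array enters the difference by which the 10 were picked. That array also had the lowest 18S control signal and cRNA yield of the 10 arrays, and the part of these in the differences was not tested.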

How the results depend on the processing

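The common shift stayed at 0 called genes under every scaling, floor, filter, probe set, trend and block alternative. Leaving out 1 array leaves the shift of a single genotype against the thapsigargin spread, a different quantity, with 1682 to 3278 genes called. Quantile normalization left 14 genes higher in both genotypes (all among the 22) and 5 lower, and 13 of the higher ones were higher in both thapsigargin pairs. A floor at the pooled median left 14 higher genes and 2095 called differences, and the second brightest probe set 14 higher genes. With no filter there were 50 higher and 12 lower genes in both, 376 in wild-type and 1031 in CD14-deficient cells alone, 184 opposite, 694 called differences, and 38 shared with thapsigargin. With a filter at the pooled 75th percentile these counts were 7, 0, 35, 351, 37, 2028 and 7, and fewer genes were tested. The second brightest probe set turned the wild-type shift of Ap4b1 to -0.40, Plet1 to 0.13, Cenpb to 0.0046, Dpys to -0.15 and Il6ra to -0.48, and the CD14-deficient shift of Nfat5 to 0.43 and Trem2 to -0.65 (the cause was not tested; all 7 of these probe sets lay under the filter, that of Cenpb at the floor). The shifts of the genotypes were negatively correlated across genes under the scaling, floor, filter and probe set alternatives, from -0.23 to -0.35. The genotype block above is the only pairing. No other was possible, because each condition is 1 array and the labels do not say whether cultures shared mice. Signals near the floor limit what can be said of dim genes: Mmp10 in CD14-deficient cells shifts by 4.16 with no floor and by 0.00 with the floor at the median.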
